A study of Homo sapiens with 6 samples.

Results

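Interferons signal through paired receptor chains that carry Janus kinases, and the 8 genes described here encode those chains and kinases. They are IFNGR1, IFNGR2, IFNAR1, IFNAR2, IL10RB, JAK1, JAK2 and TYK2, chosen by symbol, and all 8 were found among the 17187 gene symbols of the deposited table. They were measured in HT-1080, an established line of human fibrosarcoma cells that the labels give as wild type, in 3 libraries of cells treated for 8 h with 10 ng/ml recombinant IFNg (interferon gamma) and 3 control libraries of cells given PBS, a buffer. Total RNA without ribosomal RNA was sequenced, and the design sets the treated cells against the controls. No label states that replicates are separate cultures. Their spread, and the p-values built on it, may therefore be only technical.

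Interferon gamma binds IFNGR1, the ligand-binding chain, which carries JAK1, and the complex also needs IFNGR2, which brings JAK2. The kinases phosphorylate each other and the tail of IFNGR1, and STAT factors dock on receptor tails and go to the nucleus as dimers. Type I interferons bind IFNAR1, which carries TYK2, and IFNAR2, which carries JAK1, and signal through STAT2 and IRF9, among others. IL10RB is an accessory chain shared by the receptors for interleukin 10, interleukin 22 and the type III interferons, and it carries TYK2.

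Values are normalised read counts, that is whole reads divided by 1 size factor per library and not by gene length. Libraries held 59556948 to 83501954 reads, and a receptor or kinase gene had between 738 and 15750 reads in a library. Libraries numbered 3 stood apart in both groups. Over 11701 genes with a mean of at least 100, the second principal component (17.2% of variance) placed IFNg 3 at -16.23 and control 3 at -24.3, and the other 4 libraries between 7.584 and 12.48. Of 7 mesenchymal markers in the table, 0 passed limma (1 at an unadjusted p under 0.05, 0 by edgeR or DESeq2), and their sum was 676151 to 709262 in IFNg and 735960 to 752895 in control. NT5E of that list was near 0 (33.9 ± 31.1 in IFNg and 37.8 ± 31.9 in control, SD, n = 3 each). KRT8 and KRT18, on the epithelial list, were present at 19916 ± 879 and 11344 ± 1760 in IFNg, against 16193 ± 2730 and 10710 ± 1765 in control. They did not pass (limma adjusted p = 0.198 and 0.842), though KRT8 passed without control 3 (0.00872). The rest of that list was low or absent. CLDN4 was at 44.3 ± 29.3 in IFNg and 56.3 ± 16.3 in control. KRT5 had 16 reads over the IFNg libraries and 0 over the controls, and EPCAM, CDH1 and KRT14 were not in the table. The 8 T cell, NK cell and macrophage markers in the table other than NCAM1, CD68, CSF1R and LYZ reached at most 50.1 in a library, and summed to 49.6 to 93.8 in IFNg and 20.4 to 79.3 in control. Those set aside were higher. CD68 was at 12176 ± 3118 in IFNg and 13349 ± 3090 in control, and NCAM1 at 3811 ± 328 in IFNg and 3999 ± 117 in control. CSF1R was at 158 ± 19.9 in IFNg and 226 ± 34.6 in control, and LYZ at 120 ± 27.5 in IFNg and 131 ± 22.7 in control. None of those set aside passed limma. IRF1, a transcription factor gene induced directly by IFNg signalling and the check that the treatment acted, was at 28355 ± 2187 in IFNg and 624 ± 324 in control. In bulk RNA, fewer cells that express a gene and less RNA per cell cannot be told apart.

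Among the 8 genes, IFNAR2, JAK2 and IL10RB rose after IFNg, IFNGR1 fell, and IFNGR2, IFNAR1, JAK1 and TYK2 did not pass the test. The 4 genes that changed included the ligand-binding chain of the IFNg receptor, which went down, and 2 receptor chains that the IFNg receptor does not use, which went up. The test was limma on log2(value + 1) over all 15546 genes kept by the filter on low values, 2-sided, with Benjamini-Hochberg adjusted p under 0.05. In the whole table it called 672 genes, or 4.32%, with 3.27% higher and 1.05% lower in IFNg. All 8 receptor and kinase genes passed the filter. Their median log2 difference was 0.18, against -0.01 over all genes tested. The groups did not overlap in 5 of the 8, against 20% of all genes tested. edgeR, which called 4.69% of its genes, and DESeq2, which called 6.9%, called the same 4 receptor and kinase genes, as did limma without both libraries numbered 3, where it called 9.53%.

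**Figure D1:**
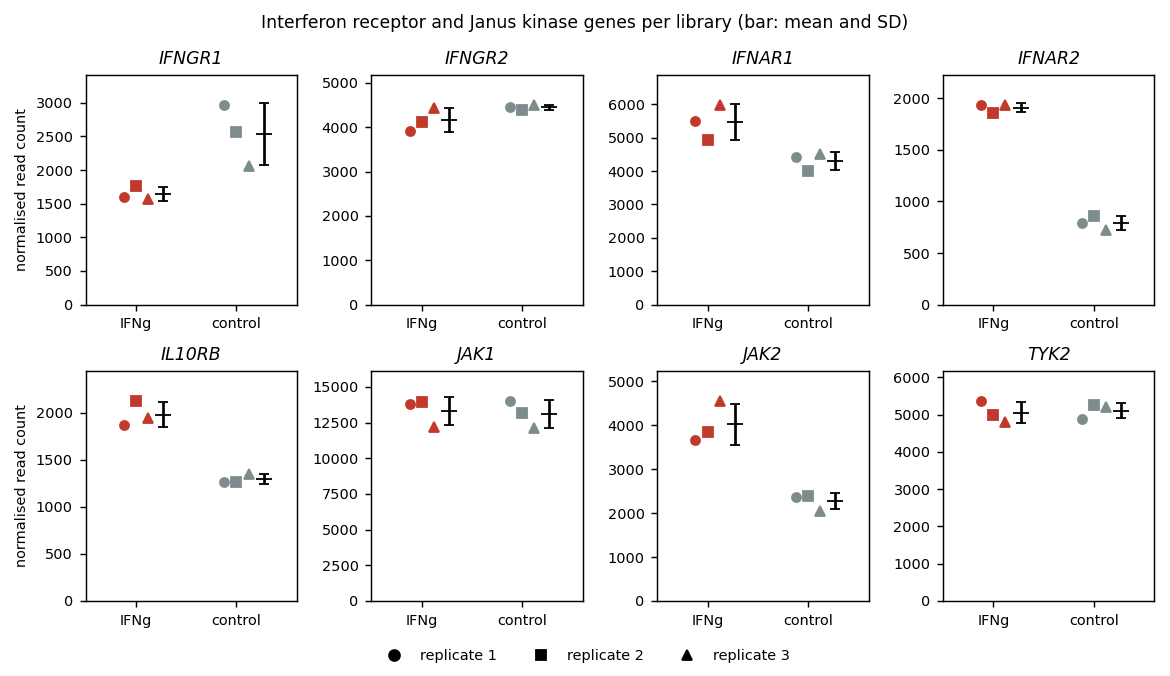
Each panel plots 1 of the 8 genes, with normalised read count on a y axis that starts at 0, IFNg libraries in red left of control libraries in grey, replicate numbers as symbols, and the mean and SD of 3 libraries as a bar. For IFNAR2, IL10RB, JAK2 and IFNAR1 all red points lie above all grey points, for IFNGR1 all lie below, and the groups overlap for IFNGR2, JAK1 and TYK2.

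IFNGR1, the chain that binds IFNg itself, had 1601, 1756 and 1575 normalised reads in IFNg 1, 2 and 3, against 2975, 2568 and 2061 in control 1, 2 and 3. The IFNg libraries lay close together and all below the controls, which were spread, with control 3 the lowest. The means were 1644 ± 98.0 in IFNg and 2535 ± 458 in control (SD, n = 3 each), a control mean 1.54 times the IFNg mean. The log2 difference was -0.61 ± 0.15 (SE), with limma adjusted p = 0.0356. This call depended on which libraries entered the fit. It was lost without IFNg 1 (adjusted p = 0.143), IFNg 2 (0.0818), IFNg 3 (0.113), control 1 (0.15) or control 2 (0.158), and was kept without control 3 (log2 difference -0.75, adjusted p = 0.00297). Without both libraries numbered 3 it was -0.72 (0.00268). Over all 17 alternatives the adjusted p ran from 0.00154 to 0.199.

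IFNGR2, the chain that brings JAK2 to the receptor, had 3911, 4120.4 and 4444 normalised reads in IFNg 1, 2 and 3, against 4454, 4392 and 4512 in control 1, 2 and 3. The groups overlapped, through IFNg 3. The log2 difference was -0.10 ± 0.10 with a 95% interval of -0.31 to 0.11 (limma adjusted p = 0.703), so a change of either sign within that interval remained possible. IFNGR2 overlaps TMEM50B on the opposite strand, and TMEM50B did not pass the test (log2 difference 0.35 ± 0.23, adjusted p = 0.534). Strand handling in the authors' read counting is not given in the sources used here.

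IFNAR2, a type I chain, had the largest difference of the 8 genes. This chain, whose tail holds JAK1 and STAT2, had 1940.0, 1857 and 1937 normalised reads in IFNg 1, 2 and 3, against 791, 858 and 720.3 in control 1, 2 and 3. The groups were far apart and each was tight. The means were 1911 ± 47.2 in IFNg and 789.5 ± 68.7 in control (SD, n = 3 each), a 2.42-fold ratio. The log2 difference was 1.28 ± 0.14 (limma adjusted p = 0.000109). It passed in all 17 alternatives, with adjusted p from 4.54e-16 to 0.00539, and ranged from 1.21 to 1.34 when 1 library was left out.

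IFNAR1, the partner chain that holds TYK2, had 5500.3, 4930.5 and 5996 normalised reads in IFNg 1, 2 and 3, against 4424, 4009.6 and 4502 in control 1, 2 and 3. Every IFNg library exceeded every control library, but by less than in IFNAR2. The SD as a percentage of the mean was 9.74% in IFNg, against 2.47% for IFNAR2. In control it was 6.14%, against 8.70% for IFNAR2. The log2 difference of 0.34 ± 0.11 (95% interval 0.11 to 0.57) did not pass the test (limma adjusted p = 0.11, unadjusted p = 0.0073).

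IL10RB had 1871, 2125 and 1943 normalised reads in IFNg 1, 2 and 3, against 1267, 1260.2 and 1352 in control 1, 2 and 3. Again no IFNg library reached down to the controls. The means were 1979.7 ± 131 in IFNg and 1293 ± 51.1 in control (SD, n = 3 each), a 1.53-fold ratio with a log2 difference of 0.61 ± 0.13 (limma adjusted p = 0.0146). The call was lost without IFNg 1 (0.0554), IFNg 2 (0.102) or control 2 (0.0763), and over all 17 alternatives the adjusted p ran from 0.000272 to 0.102. In the annotation, a read-through gene of IFNAR2 and IL10RB overlaps both on the same strand, and reads of such transcripts cannot be told apart here from those of the separate genes.

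The promoter sequence of IL10RB is shown because it alone among the 7 genes searched held a match to a binding motif of the pathway. STAT dimers bind the gamma-activated site (GAS, searched as TTCNNNGAA), and the complex that holds STAT2 and IRF9 binds the interferon-stimulated response element (ISRE, searched as GAAA, then NN, then GAAA). Windows of 300 bases, from 250 bases before to 50 bases after each RefSeq start (GRCh38.p14), were searched on both strands. Of all 35116 windows, 7.66% held a GAS match and 3.57% an ISRE match. The table held 14 windows of 7 of the 8 genes and none for IFNAR2. A GAS match was found in 1 of the 14 windows (7.14%, near the share of all windows), at bases 12 to 20 after the start of IL10RB, and an ISRE match in 0, which says only that these letters are not in these windows. The IL10RB stretch is chr21:33266117-33266396 (plus strand). Shorter stretches of induced genes of the pathway, described further on, were chosen because they hold a match. Of 9 induced target and STAT pathway genes with a window, 6 held a GAS or ISRE match, and STAT2, STAT3 and PSMB9 held neither. The stretches shown are IRF1 at chr5:132490859-132490927 (minus strand), ICAM1 at chr19:10271015-10271083 (plus strand) and IRF9 at chr14:24161172-24161240 (plus strand) with a GAS match, and SOCS1 at chr16:11256278-11256347 (minus strand) with an ISRE match. Capitals mark the match.
IL10RB: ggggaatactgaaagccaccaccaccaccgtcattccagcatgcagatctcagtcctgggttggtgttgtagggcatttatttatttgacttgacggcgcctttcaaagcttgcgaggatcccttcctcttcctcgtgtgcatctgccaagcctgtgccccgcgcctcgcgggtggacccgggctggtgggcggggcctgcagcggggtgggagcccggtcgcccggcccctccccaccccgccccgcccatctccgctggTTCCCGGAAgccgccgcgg
IRF1: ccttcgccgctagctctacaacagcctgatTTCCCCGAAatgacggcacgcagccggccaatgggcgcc
ICAM1: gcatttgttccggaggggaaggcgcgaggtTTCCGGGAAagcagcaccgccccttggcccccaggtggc
IRF9: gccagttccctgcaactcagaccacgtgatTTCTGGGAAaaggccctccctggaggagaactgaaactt
SOCS1: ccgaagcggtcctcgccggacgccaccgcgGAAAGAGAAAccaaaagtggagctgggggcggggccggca

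Of the kinases, JAK2 alone passed the test. JAK2, the kinase of IFNGR2 and of receptors such as those for growth hormone and erythropoietin, had 3663, 3856 and 4552 normalised reads in IFNg 1, 2 and 3, against 2362, 2399 and 2059 in control 1, 2 and 3. The groups were well apart, and the libraries numbered 3 were the highest of IFNg and the lowest of control. The means were 4024 ± 468 in IFNg and 2273 ± 187 in control (SD, n = 3 each), a 1.77-fold ratio, with a log2 difference of 0.82 ± 0.12 (limma adjusted p = 0.00139). The difference was 0.66 (adjusted p = 0.00129) without both libraries numbered 3. The call held without each library in turn (0.73 to 0.89, adjusted p up to 0.00852), and over all 17 alternatives it was lost only when no trend was allowed in the variance model (adjusted p 4.8e-08 to 0.0525). INSL6, which overlaps JAK2 on the opposite strand, was not in the deposited table.

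JAK1, the kinase of IFNGR1 and IFNAR2, had 13833, 13925 and 12194 normalised reads in IFNg 1, 2 and 3, against 14014, 13154 and 12117 in control 1, 2 and 3. The groups covered almost the same range, with the libraries numbered 3 lowest in each. The log2 difference was 0.02 ± 0.09 with a 95% interval of -0.18 to 0.23 (limma adjusted p = 0.947). RAVER2, an RNA-binding protein gene that overlaps JAK1 on the opposite strand, did not pass (log2 difference 0.39 ± 0.11, adjusted p = 0.0794).

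TYK2, the kinase of IFNAR1 and IL10RB, had 5367, 4995 and 4805 normalised reads in IFNg 1, 2 and 3, against 4878, 5254 and 5191 in control 1, 2 and 3. Its groups overlapped too, with a log2 difference of -0.02 ± 0.09 and an interval of -0.22 to 0.19 (adjusted p = 0.968). For both kinases the sign of the difference turned when some single libraries were left out.

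**Figure D2:**
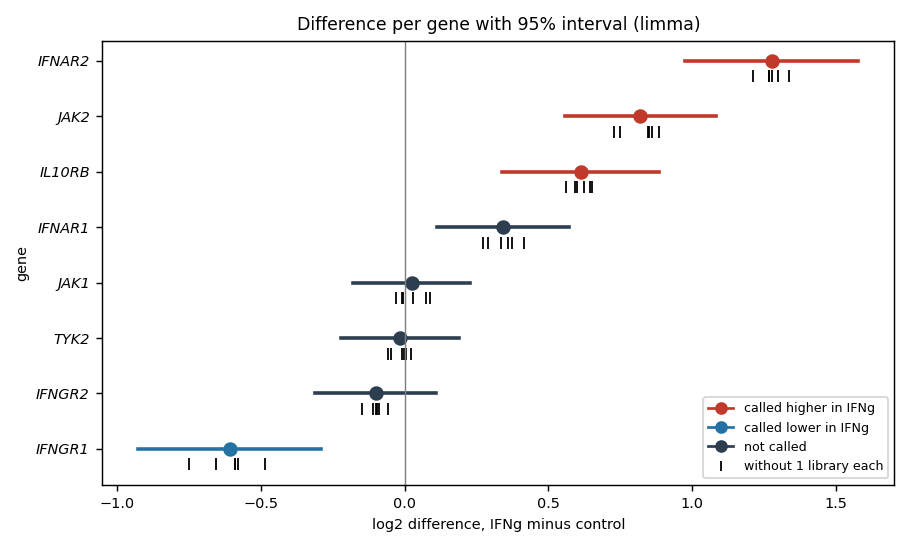
Log2 difference of IFNg minus control (x axis) for each of the 8 genes (y axis), as a point with its 95% interval from limma, coloured by call, and as black ticks the values with 1 library left out each. IFNAR2 (1.28), JAK2 (0.82) and IL10RB (0.61) lie above 0 and IFNGR1 (-0.61) below 0 in all ticks, while the intervals of JAK1, TYK2 and IFNGR2 span 0.

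Divided by the length of each gene's merged exons (GENCODE release 29, which may differ from the authors' gene models), levels can be set side by side as normalised reads per kb. JAK1 was the most abundant of the 8 in both groups (2108 ± 154 per kb in IFNg and 2073 ± 150.3 per kb in control, SD, n = 3 each). IFNGR2 came next, at 1405 ± 90.7 per kb in IFNg and 1504 ± 20.2 per kb in control. IFNAR2 was the least abundant, at 414 ± 10.2 per kb in IFNg and 171 ± 14.9 per kb in control. In between, the order differed between the groups. In IFNg the levels per kb fell in the order IFNAR1 (869 ± 84.6), TYK2 (746 ± 42.2), JAK2 (652 ± 75.9), IFNGR1 (502 ± 29.9) and IL10RB (435 ± 28.8). In control they fell in the order IFNGR1 (773 ± 139.8), TYK2 (754 ± 29.7), IFNAR1 (684 ± 42.0), JAK2 (368 ± 30.2) and IL10RB (284 ± 11.2). Neighbours whose libraries overlapped were IFNAR1 with TYK2, TYK2 with JAK2, and IL10RB with IFNAR2 in IFNg, and IFNGR1 with TYK2 in control.

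Ratios of 2 genes within a library do not depend on scaling, and 9 were compared with an exact permutation test over libraries (2-sided), whose smallest possible p with 3 against 3 is 0.1. In 8 of the 9 ratios the groups did not overlap, each with an exact permutation p = 0.1 and 0.1125 after Benjamini-Hochberg adjustment over the 9, so no ratio could pass 0.05 in this design. Each of these 8 ratios holds a gene that passed limma, and TYK2/JAK1 holds none, so the count restates those calls. The share of ratios without overlap among other pairs of genes was not computed. The ligand-binding to accessory ratio IFNGR1/IFNGR2 was 0.409, 0.426 and 0.355 in IFNg 1, 2 and 3, against 0.668, 0.585 and 0.457 in control 1, 2 and 3. All IFNg ratios lay below all control ratios, with IFNg 2 nearest to control 3. The log2 difference of this ratio was -0.51 ± 0.18 (SE). In the type I pair, IFNAR1/IFNAR2 was 2.86 ± 0.221 in IFNg and 5.51 ± 0.791 in control (SD, n = 3 each; log2 difference -0.94 ± 0.14). Per length, this ratio was 2.10 ± 0.162 in IFNg and 4.03 ± 0.580 in control (SD, n = 3 each), so IFNAR1 remained the more abundant chain in both groups. Between the ligand-binding chain for IFNg and the type I chain IFNAR1, IFNGR1/IFNAR1 was 0.303 ± 0.0479 in IFNg and 0.590 ± 0.116 in control (log2 difference -0.95 ± 0.22). The ratio IFNGR2/IL10RB was 2.11 ± 0.175 in IFNg and 3.45 ± 0.0953 in control (-0.71 ± 0.07), and IFNAR2/IL10RB was 0.969 ± 0.0851 in IFNg and 0.612 ± 0.0746 in control (0.67 ± 0.13).

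Ratios of JAK2 to the other kinases were higher in every IFNg library than in each control. JAK2/JAK1 was 0.265, 0.277 and 0.373 in IFNg 1, 2 and 3, against 0.169, 0.182 and 0.1699 in control 1, 2 and 3, a log2 difference of 0.80 ± 0.16. JAK2/TYK2 was 0.801 ± 0.135 in IFNg and 0.446 ± 0.0448 in control (SD, n = 3 each; log2 difference 0.84 ± 0.16). TYK2/JAK1 overlapped between the groups (0.380 ± 0.0189 in IFNg and 0.392 ± 0.0407 in control, SD, n = 3 each; exact permutation p = 0.8). The ratio with the largest difference was JAK2/IFNGR1, genes of the same receptor complex, at 2.46 ± 0.377 in IFNg and 0.909 ± 0.105 in control, a log2 difference of 1.43 ± 0.16.

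**Figure D3:**
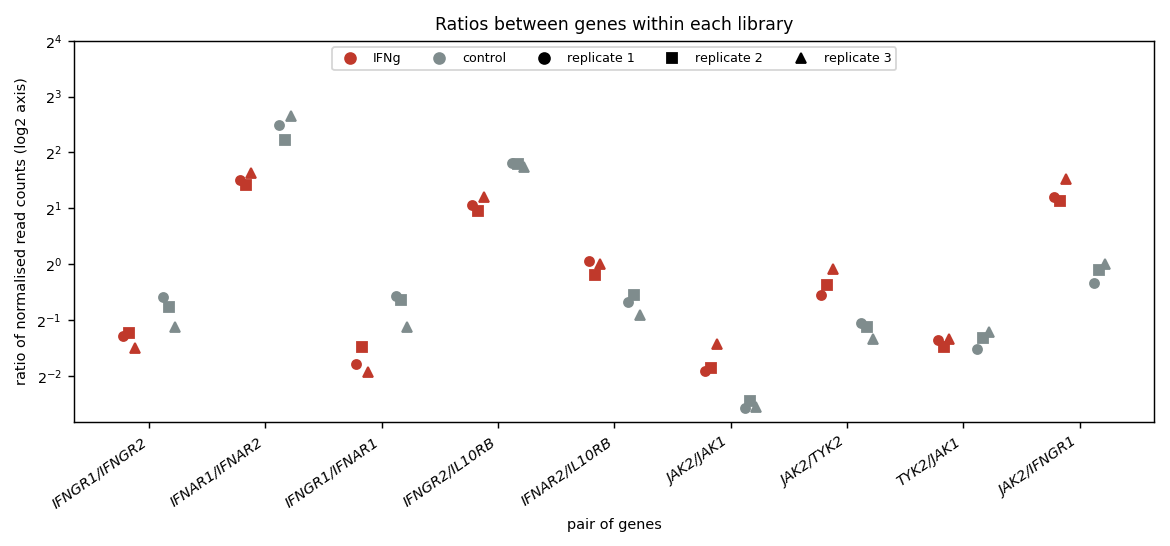
Ratio of normalised read counts of 2 genes within each library (y axis, log2 axis) for 9 pairs (x axis), IFNg in red left of control in grey, with symbols for the replicate number. The 2 groups are apart in every pair except TYK2/JAK1.

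The chromosome 21 receptor genes lie next to each other, in the order IFNAR2, IL10RB, IFNAR1 and IFNGR2, with no other protein-coding gene between them in RefSeq apart from the read-through entry. Their log2 differences decreased in that order, at 1.28, 0.61, 0.34 and -0.10, and such an order of 4 values was not tested. Of 13 genes tested within 8 protein-coding genes of them 0 rose and 0 fell in limma, 0 had an unadjusted p under 0.05, and edgeR and DESeq2 called 0. Their median log2 difference was 0.01, and without both libraries numbered 3 limma called 2 of them higher, DONSON and TMEM50B. GART, a purine synthesis enzyme gene, was at 25729 ± 306 in IFNg and 26547 ± 1950 in control (-0.04 ± 0.09, adjusted p = 0.883), and SON, a splicing factor gene, at 39898 ± 1863 in IFNg and 40650.0 ± 1665 in control (-0.03 ± 0.08, 0.931).

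JAK2 lies on chromosome 9 near CD274 and PDCD1LG2, which encode the checkpoint ligands PD-L1 and PD-L2. Of 13 genes tested within 8 protein-coding genes of it 1 rose and 0 fell in limma (2 higher and 0 lower at an unadjusted p under 0.05, 1 and 0 by edgeR and by DESeq2), with a median log2 difference of 0.06. Without both libraries numbered 3, 2 rose and 0 fell, and these were PDCD1LG2 and INSL4. INSL4 was near 0, at 22.3, 22.7 and 0 in IFNg 1, 2 and 3, against 0, 0 and 13.6 in control 1, 2 and 3. With all libraries PDCD1LG2 was the one that rose, at 2326 ± 32.6 in IFNg and 579.5 ± 87.0 in control (2.01 ± 0.15, limma adjusted p = 4.35e-06). CD274 was at 5826 ± 205 in IFNg and 4005.5 ± 1833 in control and did not pass (0.67 ± 0.29, limma adjusted p = 0.287), with control 3 at 1904 far below the other controls, and without control 3 the difference was 0.21. ERMP1, a peptidase gene a little farther off with a high count, differed by -0.07 ± 0.14 (adjusted p = 0.894). RCL1, the kept gene next to JAK2 on its other side, differed by -0.18 ± 0.12 (adjusted p = 0.532).

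**Figure D4:**
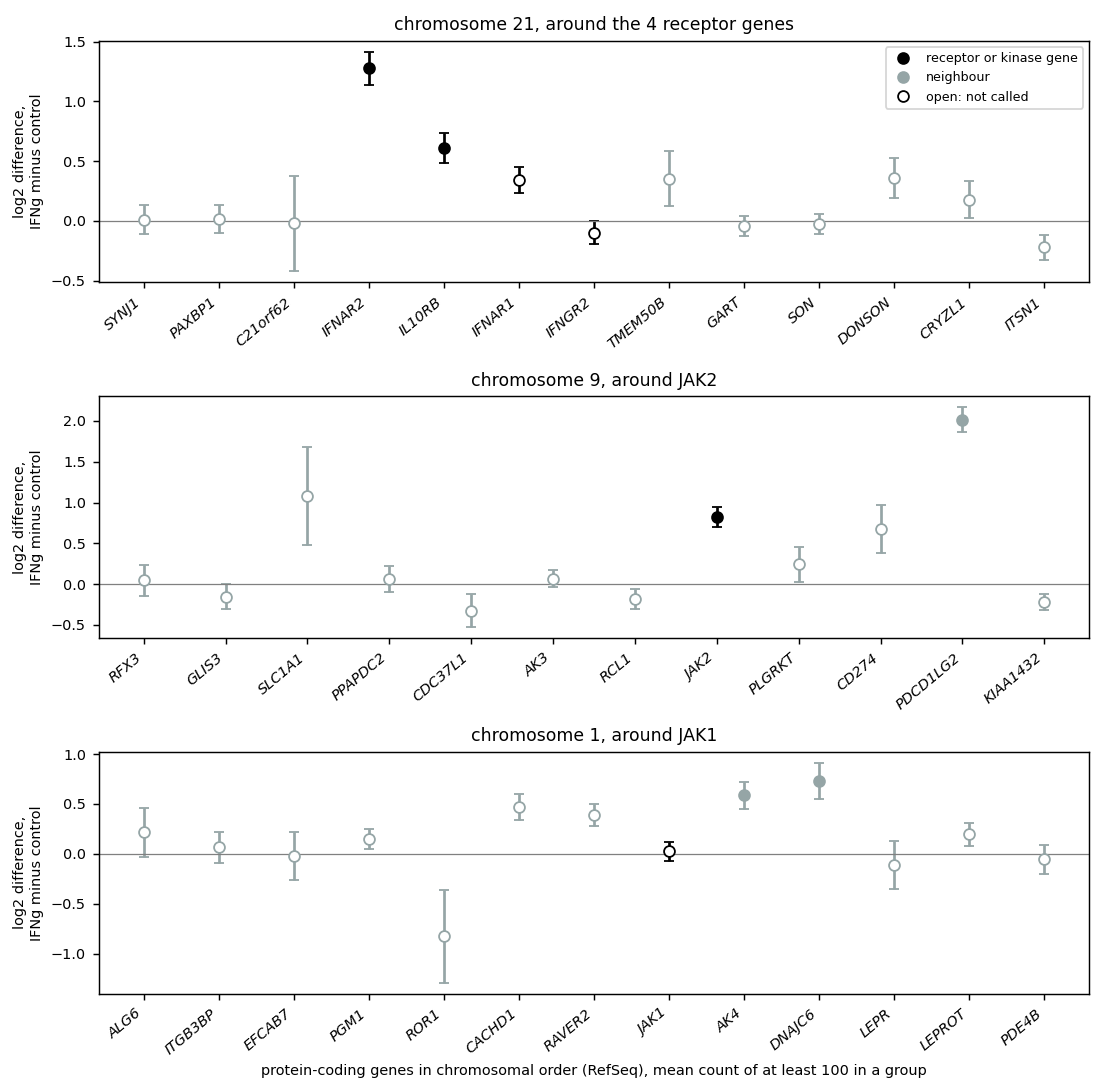
Log2 difference of IFNg minus control with its SE (y axis) for protein-coding genes in chromosomal order (x axis) around the chromosome 21 receptor genes (top), JAK2 (middle) and JAK1 (bottom), for genes with a mean of at least 100 in a group. Black points are receptor or kinase genes, grey points neighbours and open points genes that did not pass the test; the chromosome 21 receptors run from 1.28 (IFNAR2) to -0.10 (IFNGR2).

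In the rest of the pathway, called genes were found among STAT factors, inhibitors, targets and 1 other receptor. Of 7 kept STAT factors and IRF9, 4 rose and 0 fell (the same 4 by edgeR and by DESeq2), with a median log2 difference of 1.27 against -0.01 over all genes tested. IRF9 (4609.8 ± 58.3 in IFNg and 679 ± 94.5 in control) and STAT2 (17262 ± 595 in IFNg and 3944 ± 675 in control), partners in type I signalling, were among those that rose. STAT3, the main STAT of interleukin 6 and interleukin 10, rose as well (20095 ± 639 in IFNg and 8354 ± 58.6 in control). STAT6 (0.11 ± 0.09, limma adjusted p = 0.655) and STAT5B (-0.07 ± 0.11, 0.837) did not pass. Of 11 kept target genes, a list that also holds SOCS1 of the inhibitors, 10 rose and 0 fell in limma, edgeR and DESeq2, with a median of 5.06, led by ICAM1 (6.48 ± 0.27), IDO1 (5.67 ± 0.34), GBP2 (5.64 ± 0.11) and IRF1 (5.62 ± 0.26). The kept target that did not pass was the chemokine gene CXCL9, with 15 reads over the IFNg libraries and 0 over the controls. CXCL10 (33 reads over the IFNg libraries and 0 over the controls) and IRF8 (15 and 0) were removed by the filter. FCGR1A of the list was not in the table.

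Of 22 kept inhibitors of the receptors and kinases, 3 rose and 1 fell (the same in edgeR, 4 and 2 in DESeq2), with a median of -0.05. SOCS1, which blocks the JAK1 and JAK2 kinase domains, was at 269 ± 36.0 in IFNg and 31.6 ± 17.2 in control (3.16 ± 0.44, limma adjusted p = 0.000854). USP18, which binds IFNAR2 and dampens type I signalling, was at 1133 ± 32.4 in IFNg and 152 ± 15.9 in control (2.90 ± 0.21). SOCS3, an inhibitor that acts on gp130-type receptors, was at 6016 ± 122 in IFNg and 2041 ± 295 in control (1.57 ± 0.12). SOCS2, known for its action on growth hormone signalling, fell (154 ± 26.9 in IFNg and 345 ± 58.8 in control, limma adjusted p = 0.0377), but the call was kept only without control 3 when single libraries were left out (0.0246, otherwise up to 0.195). In limma without both libraries numbered 3, 3 inhibitors rose and 3 fell. The phosphatase gene PTPN11 (-0.15 ± 0.09, adjusted p = 0.459) and the adaptor gene SH2B3 (0.01 ± 0.09, 0.986) had the highest normalised read counts of the list and did not pass.

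Of 19 kept other receptors that share these kinases, together with the remaining Janus kinase gene JAK3, 1 rose and 0 fell in limma (6 higher and 0 lower at an unadjusted p under 0.05, 1 and 0 by edgeR, 5 and 0 by DESeq2), with a median of 0.05. That gene was IL15RA, the interleukin 15 binding chain, at 2167 ± 273.5 in IFNg and 391.7 ± 122 in control (2.50 ± 0.21). Without both libraries numbered 3, 5 rose and 0 fell, and that fit called 5.67% of all genes tested higher and 3.85% lower. DESeq2 called 4.67% of its genes higher. The share of all genes at an unadjusted p under 0.05 was not computed. IL6ST, the gp130 chain, was at 32677 ± 3643 in IFNg and 25855 ± 1286 in control (0.33 ± 0.10, limma adjusted p = 0.0866), and passed without control 3 (0.0384, range over all alternatives 0.00308 to 0.357). OSMR, its oncostatin M partner, differed by 0.24 ± 0.08 (adjusted p = 0.16). JAK3 had only 71 reads over the 3 IFNg libraries and 78 over the 3 controls (23.9 ± 15.0 in IFNg and 26.4 ± 21.5 in control, adjusted p = 0.993).

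Of the chains that pair with IL10RB, IFNLR1 and IL22RA1 were kept. IFNLR1, the type III interferon chain, was at 165 ± 30.9 in IFNg and 155 ± 12.7 in control (log2 difference 0.08 ± 0.31, limma adjusted p = 0.947). IL10RA, the interleukin 10 binding chain, had 8 reads over the 3 IFNg libraries and 14 over the 3 controls, and did not pass the filter. IL22RA1, the interleukin 22 chain, was at 106.8, 106.4 and 84.6 in IFNg 1, 2 and 3, against 6.43, 37.6 and 40.9 in control 1, 2 and 3, from 291 reads in IFNg and 93 in control. The groups did not overlap, and the difference of 2.12 ± 0.66 did not pass in limma (adjusted p = 0.112, unadjusted p = 0.00755). It was larger than that of any of the 8 genes and passed without control 3 (2.56, adjusted p = 0.0430, range over all alternatives 0.0196 to 0.309). Of 4 kept relatives in the class II receptor family 0 rose and 0 fell in limma, with a median of -0.25 (1 higher and 1 lower at an unadjusted p under 0.05, 0 by edgeR, 1 lower by DESeq2). F3, which encodes tissue factor, was at 1052 ± 207 in IFNg and 1829 ± 767 in control (-0.71 ± 0.28, adjusted p = 0.241) and passed without control 3 (-1.11, adjusted p = 0.00201, range over all alternatives 0.000248 to 0.611). Among the ligands, IFNE (322 ± 46.2 in IFNg and 240.1 ± 20.8 in control) and IL10 (20.3 ± 13.1 in IFNg and 17.5 ± 12.5 in control) were the 2 kept genes, and neither passed in limma (adjusted p = 0.485 and 0.947), edgeR or DESeq2, or at an unadjusted p under 0.05. Of 8 kept chaperones and adaptors of the kinases 0 rose and 0 fell in limma, edgeR or DESeq2 (1 lower at an unadjusted p under 0.05), with a median of 0.02. HSP90AA1 and HSP90AB1, which fold them, differed by 0.15 ± 0.09 and -0.02 ± 0.10 (adjusted p = 0.519 and 0.966).

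**Figure D5:**
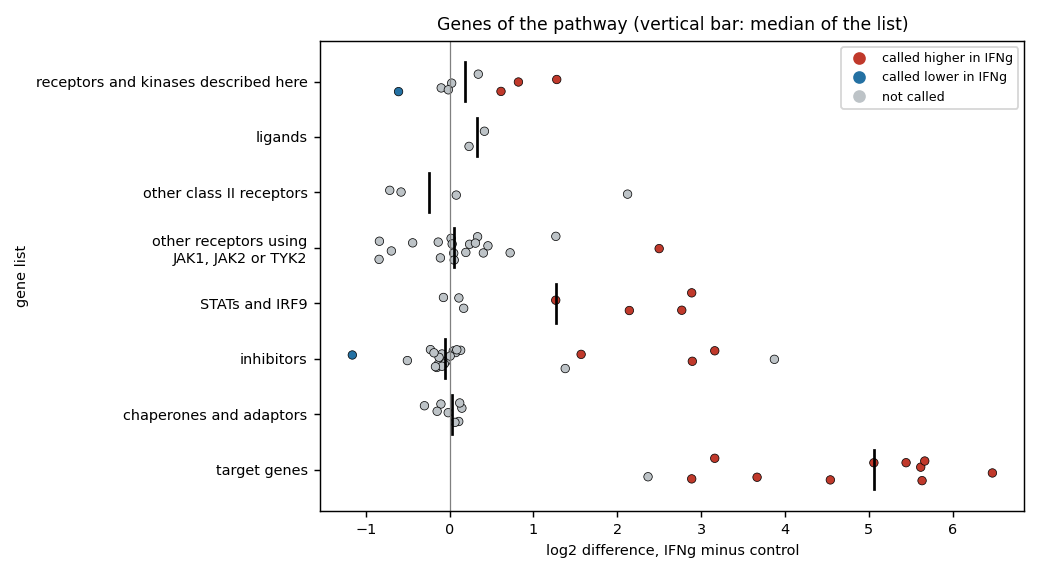
Log2 difference of IFNg minus control (x axis) for kept genes of 8 lists (y axis), red where called higher, blue where called lower and grey where not called, with the median of each list as a vertical bar. Target genes have a median of 5.06 and STAT factors with IRF9 of 1.27, while the receptors and kinases have a median of 0.18 with calls on either side of 0.

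Genes with the most similar course over the 6 libraries were sought among 11693 others with a mean of at least 100, by the root mean square difference of log2 values centred on their own mean. For IFNAR2 the nearest were RNF213, an interferon-responsive ubiquitin ligase gene, at 0.0366, STAT3 at 0.0703 and PSME1, a proteasome activator subunit gene, at 0.0725. For IL10RB they were the small GTPase gene RALA at 0.0438, RFX5, a transcription factor gene for MHC class II, at 0.0564 and the Fanconi anaemia gene FANCF at 0.0660. For JAK2 they were GCLM, a subunit gene of the first enzyme of glutathione synthesis, at 0.0737, NUDCD1 at 0.0836 and the p53-responsive autophagy gene DRAM1 at 0.0950. For IFNGR1 they were ERBB2IP at 0.0577, TACC2 at 0.0635 and the ubiquitin ligase gene SMURF2 at 0.0652. These distances describe 6 libraries that share the 2 groups, so a gene with a like difference between groups lies near by construction. TACC2 did not pass the limma test (adjusted p = 0.0642). ERBB2IP (adjusted p = 0.0207) and SMURF2 (0.0365) kept their calls only without control 3 when single libraries were left out (otherwise up to 0.118 and 0.175), and FANCF (0.0178) lost its call without IFNg 1, IFNg 2 or control 2 (up to 0.114).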

How the data were processed

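RNA of 6 HT-1080 libraries (3 IFNg, 3 control) was measured by stranded total RNA sequencing after removal of ribosomal RNA, per the labels' protocols. FastQC 0.11.3, TopHat2 2.0.13, Cufflinks, Cuffdiff 2.2.1, hg19 and GRCh37 are named in the submitters' processing notes, without their roles. How reads were counted, by strand or not, and how values were scaled is not given in the sources used here. Values that the authors deposited under the name RPKM are another signal: whole reads divided by a size factor, since within each library 100% of the values above 0 were whole multiples of a single step, to within 0.001 reads. One read was worth 0.835 to 1.16. The size factors, 0.863 to 1.20, equalled the median-of-ratios factors computed from the recovered reads, to the digits kept. Such a factor is the median, over genes with reads in every library, of a library's reads relative to their geometric mean. No deposited column of values was left unmapped.

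The test chosen for RPKM values was kept: limma 3.58.1 (R 4.3.3) with a variance trend on log2(value + 1), which understates changes of low genes. Genes with at least 0.5 in at least 3 of 6 libraries were kept (15546 of 17187), and p-values were adjusted by Benjamini-Hochberg over all of them (threshold 0.05). edgeR 4.0.16 and DESeq2 1.42.0 were run on the recovered reads as alternatives, beside other pseudocounts, filters, scalings, a variance model without trend, a replicate block and fits without single libraries or without both libraries numbered 3. Pairs of libraries of a group, scaled by total reads, differed far beyond counting error (chi-square over its degrees of freedom 15.8 to 114.7). None was therefore counted as a repeat sequencing of another library. The statistic cannot tell separate cultures from separate preparations of the same culture. limma, edgeR and DESeq2 were also run on simulated counts with known changes in 200 genes and the same scatter set for every gene. limma recovered 28.4% of 1.5-fold, 95.5% of 2-fold and 100% of 4-fold changes. For 1.5-fold changes edgeR recovered 41.8% and DESeq2 38.8%. A gene that did not pass may therefore still hold a change of about that smallest size. False calls in the simulation were 7 of 156 for limma, 10 of 169 for edgeR and 16 of 171 for DESeq2. Replicate numbers did not meet the criterion for pairing all libraries.

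Named genes were all 8 receptor and kinase genes, up to 4 called genes with the largest difference and 2 uncalled genes with the largest mean from each other list, the 3 nearest profiles of each called receptor or kinase gene, and IRF1 as a check of the treatment. One gene that this rule names is not reported here. TMEM50B, RAVER2, RCL1, IL10RA, IL22RA1, JAK3, NHSL1 and NT5E fall outside this rule and were chosen after their values were seen. LYZ, CLDN4, KRT5, INSL4, DONSON, CXCL10, IRF8 and PSMB9 fall outside this rule too. The genes and lists were chosen with earlier results of these data known.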

Additional observations from a re-analysis of the deposited data

How the results depend on the processing

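IFNAR2 kept its direction and passed the threshold in all 17 alternatives, and IFNGR2 passed in 0. edgeR and DESeq2 called the same 4 receptor and kinase genes in the same directions. With no variance trend, 279 genes were higher and 41 lower over the whole table, 2 of the 8 genes were called, and IFNGR1 (-0.61, adjusted p = 0.199) and JAK2 (0.82, adjusted p = 0.0525) no longer passed in limma. DESeq2 called 339 genes lower. Without both libraries numbered 3, 882 genes were higher and 599 lower, and TYK2 turned to 0.032. Leaving out 1 library each gave 330 to 847 genes higher, 37 to 455 lower and 2 to 4 of the 8 genes called. It gave log2 differences of -0.75 to -0.49 for IFNGR1, 0.56 to 0.65 for IL10RB, -0.030 to 0.086 for JAK1, -0.059 to 0.020 for TYK2 and -0.12 to 0.027 for TYK2/JAK1. The 847 genes higher and 455 lower came without control 3, and the cause was not tested.

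With the replicate number as a block, 915 genes were higher and 549 lower, and IFNAR1 passed (0.34, adjusted p = 0.0186). Deviations of libraries with the same number correlated at 0.0437, 0.0209 and 0.111 for numbers 1, 2 and 3, and IFNg 2 correlated best with control 1 (0.0289). Not every pair was over 0.1, so the numbers were not taken to pair the libraries, although both libraries numbered 3 deviated together more than any other pair; the cause was not tested. Quantile normalisation, the counts over all neighbours within 8 genes and the list counts without libraries numbered 3 were chosen after seeing the data. Among other named genes, 892 values under alternatives kept direction and side of the threshold, 37 lost the threshold, 24 gained it and 28 changed sign. The sign changed only in genes that passed in neither fit. Over fits without 1 library the differences were -0.52 to 0.97 for IL10, -0.020 to 0.24 for IFNLR1, -0.080 to 0.029 for HSP90AB1, -0.061 to 0.0064 for SON, -0.060 to 0.066 for SH2B3, -1.78 to 0.57 for CD3D, -0.22 to 0.048 for ERMP1, -0.14 to 0.070 for VIM, -0.039 to 0.22 for KRT18, -0.35 to 0.090 for CD68, -0.17 to 0.015 for STAT5B and -0.015 to 0.12 for MAP3K5. IFNLR1 was at -0.049 and SH2B3 at -0.044 without both libraries numbered 3. With quantile normalisation, IFNLR1 was at -0.0098, HSP90AB1 at 0.064 and VIM at 0.0062. The 8 genes had 738 to 15750 reads per gene and library, and IL10RA had 8 over the IFNg libraries and 14 over the controls.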

Other observations

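Genes beside JAK1, TYK2 and IFNGR1 were also measured, over all genes tested within 8 protein-coding genes on either side in RefSeq. Of 13 such genes around JAK1 on chromosome 1, 2 rose and 0 fell in limma, with a median log2 difference of 0.20 against -0.01 over all genes tested (4 higher by DESeq2, 2 by edgeR, 3 in limma without both libraries numbered 3). AK4, an adenylate kinase gene of the mitochondrion, was at 8047 ± 1211 in IFNg and 5359 ± 861 in control (SD, n = 3 each; log2 difference 0.59 ± 0.13, limma adjusted p = 0.0281), a call lost without IFNg 1, IFNg 3, control 1 or control 2 (up to 0.158). DNAJC6, which encodes the clathrin-uncoating factor auxilin, was at 956 ± 124 in IFNg and 577 ± 76.7 in control (0.73 ± 0.18, adjusted p = 0.0457), a call kept only without control 3 when single libraries were left out (otherwise up to 0.217). RAVER2, which overlaps JAK1 on the opposite strand, was at 3151 ± 239 in IFNg and 2408 ± 100.4 in control and did not pass (0.39 ± 0.11, adjusted p = 0.0794). CACHD1 passed only without control 3 among the fits that left out 1 library (0.0379, against 0.0714 with all).

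Of 13 genes around TYK2 on chromosome 19, 1 rose and 0 fell, with a median of 0.03, and the one that rose was ICAM1, the adhesion molecule gene of the target list, at 4369 ± 137 in IFNg and 50.5 ± 17.8 in control. CDC37, which encodes the kinase co-chaperone of HSP90, was at 10019 ± 523 in IFNg and 10760 ± 207 in control (-0.10 ± 0.08, limma adjusted p = 0.633). Of 10 genes around IFNGR1 on chromosome 6, 0 passed in limma, edgeR or DESeq2, and 1 was lower at an unadjusted p under 0.05, NHSL1 (-0.26 ± 0.11, adjusted p = 0.263). Without both libraries numbered 3, 1 of the 10 was lower, TNFAIP3. This gene, which encodes the NF-kB inhibitor A20, was at 1084 ± 193 in IFNg and 1540.4 ± 615 in control (-0.43 ± 0.28, adjusted p = 0.538), and passed without control 3 (-0.82, adjusted p = 0.0103).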
